A study of Mus musculus with 8 samples.

Results

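The genes that move and store zinc and iron were examined in fibroblasts from the newborn mouse heart. They are 34 of the 56748 genes in the count table. Among them are the protein-coding genes of the Slc30a family (10 genes, zinc exporters) and the Slc39a family (14 genes, zinc importers). The others are the metallothioneins Mt1 and Mt2, their zinc-sensing activator Mtf1, and 7 genes of iron handling (Tfrc, Slc11a2, Fth1, Ftl1, Slc40a1, Ireb2 and Aco1). The 34 genes were chosen by name, and the rule uses no measured value. It was set with earlier results of these data known, however, so the choice was not blind to them. Polyadenylated RNA was sequenced from 8 cultures of primary cardiac fibroblasts, wild-type cells of 1-day-old C57BL/6J mice. In 4 of them the cells had received TGF-β1, a cytokine that turns fibroblasts into contractile, matrix-making myofibroblasts, at 10 ng/mL for 48 h, and in the other 4 they were untreated. The treatment was used as a culture model of fibrosis. The protocol also names Mirin, an inhibitor of the MRN complex, but no library analysed here carries it in its label.

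The cultures came from whole hearts of pups, were taken to be fibroblasts because they stuck to plastic during a short plating step, and were described in the series design as isolated from different litters. The p-values below therefore measure the spread between these cultures. The labels do not say how many animals were pooled in each culture.

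Free zinc and iron are toxic, so a cell sets their levels by balancing import, storage and export. ZIP proteins (Slc39a) carry zinc into the cytosol, ZnT proteins (Slc30a) carry it out of the cell or into vesicles, and metallothioneins hold it in clusters of cysteines. Metallothionein genes are switched on by MTF1 when zinc rises, through short DNA motifs called metal response elements. Iron enters on transferrin through the receptor encoded by Tfrc, is stored in cages of ferritin heavy chains (Fth1) and light chains (Ftl1), and leaves through ferroportin (Slc40a1), the known cellular iron exporter. The iron regulatory proteins, encoded by Aco1 and Ireb2, bind RNA hairpins called iron-responsive elements when iron is low: a hairpin in the 5′ untranslated region then blocks translation, and hairpins in the 3′ untranslated region stabilise the transcript.

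The groups of this set did not move as blocks. With TGF-β1, ferroportin fell to 0.252 of its untreated level, transferrin receptor rose 1.30-fold and ferritin heavy chain fell to 0.808 of its untreated level. Among zinc importers Slc39a8 fell to 0.424 of its untreated level while Slc39a14 rose 1.39-fold, and Mt1 fell to 0.694 of its untreated level. Of the 34 genes, 27 passed the filter on low counts. In the edgeR quasi-likelihood test with Benjamini-Hochberg adjustment over all 13960 genes tested, 6 of these 27 were higher with TGF-β1, 7 were lower and 14 were not called at an adjusted p under 0.05. The 13 called genes are 48.1% of the 27, and 36.0% of all genes tested were called. By direction, 22.2% of the 27 were higher, against 17.6% of all genes tested, and 25.9% were lower, against 18.5% of all genes tested. The 7 genes that failed the filter are not in these shares, so they do not describe the whole set.

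Most of the changes were small. The median log2 fold change was 0.04 over the 27 genes and 0.01 over all genes tested, and the median absolute log2 fold change was 0.15 in the set and 0.16 over all genes. Of the 13 called genes, 3 changed at least 2-fold (Slc40a1, Slc39a8 and Slc39a4, all lower) and 10 changed by less than 1.5-fold. Over all genes tested, 807 of the 5030 called changed at least 2-fold and 3478 by less than 1.5-fold. Nothing particular to the set is read from these counts. In 14 of the 27 genes (51.9%) the values of the 4 TGF-β1 cultures did not overlap those of the 4 untreated cultures, 8 lying above and 6 below, and 33.9% of all genes tested had no overlap. When library totals replaced the composition-corrected scaling, the median of all genes shifted by -0.08 and the split within the set became 3 higher and 8 lower. The split over all genes then became 1304 higher and 3670 lower, against 2451 higher and 2579 lower with the scaling used throughout. No called gene of the set changed sign under any scaling tried. The plot of log2 fold changes by family shows the 27 genes in this order.

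**Figure D1:**
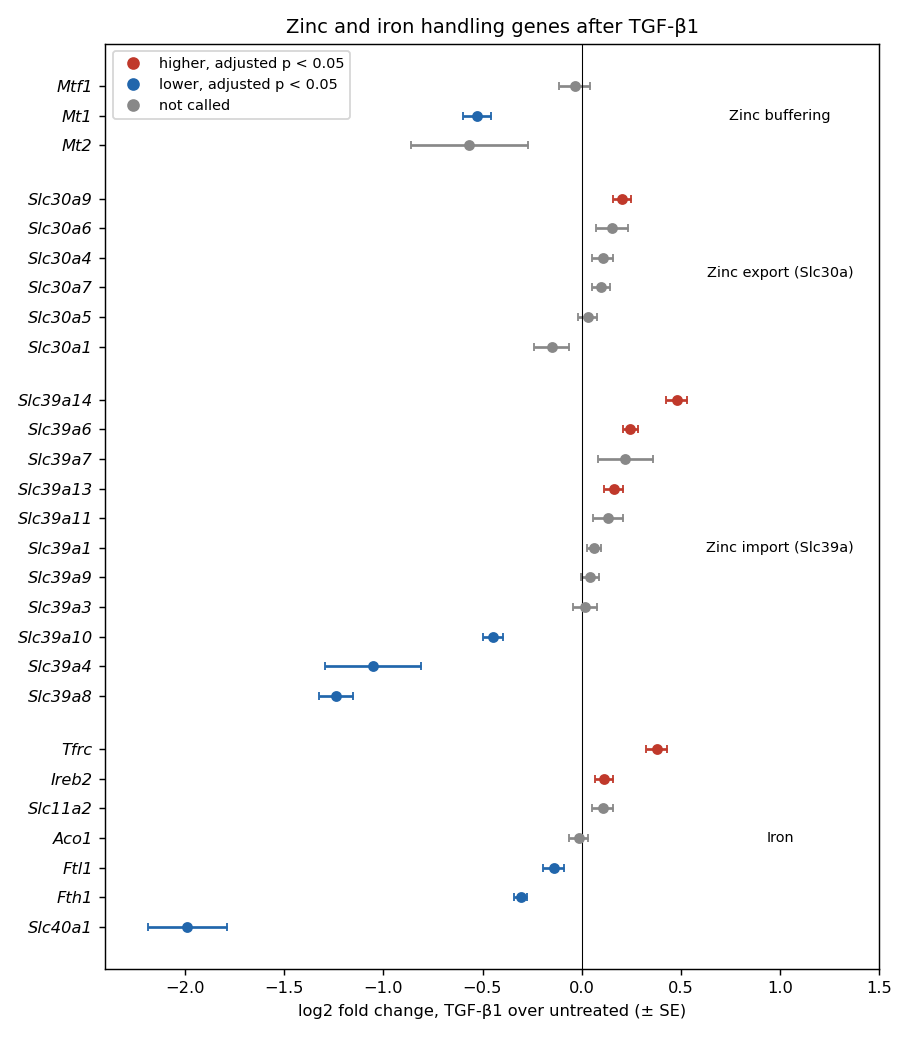
Log2 fold change of each of the 27 tested zinc and iron handling genes, TGF-β1 over untreated, with its standard error (4 cultures each). Most points lie near 0, and Slc40a1, Slc39a8 and Slc39a4 are the 3 genes beyond a log2 fold change of -1.

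The libraries held 14340740 to 17176898 counted reads and 20662 to 21295 genes with a read. Untreated replicate 1 stood apart in ribosomal RNA, at 0.0332% of its counts, where the TGF-β1 libraries had 1.09% to 2.56% and the other untreated libraries 2.13% to 2.49%. The response to TGF-β1 was present, with 7 of 7 check genes higher, Col1a1 (a fibrillar collagen) among them at 10684 ± 595 CPM with TGF-β1 and 6963 ± 521 CPM untreated (SD, n = 4 each). Markers of other cells also moved: 10 of 12 cardiomyocyte genes were lower, their summed level being 383 to 463 CPM with TGF-β1 and 725 to 798 CPM untreated. Of 5 tested mural genes (of pericytes and smooth muscle) 4 were higher and 1 lower, the sum of the list being 1501 to 1645 CPM with TGF-β1 and 1264 to 1298 CPM untreated. Of 8 epicardial and mesothelial genes 1 was higher and 4 lower, the sum being 925 to 955 CPM with TGF-β1 and 1171 to 1234 CPM untreated. All 12 cell division genes were lower, at 49.8 to 62.1 CPM in sum with TGF-β1 and 362 to 391 CPM untreated. Of the 10 fibroblast markers, 2 were higher and 7 lower, and in sum they were 23519 to 25193 CPM with TGF-β1 and 20599 to 22445 CPM untreated. In RNA from whole cultures, fewer cells of a type and less RNA per cell cannot be told apart. The part of these shifts in the values below was not tested.

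Ferroportin had the largest log2 fold change of the set in the edgeR fit. Slc40a1 (ENSMUSG00000025993, chr1:45947228-45965683, minus strand, GRCm39) had 0.986, 1.93, 1.69 and 1.55 CPM in the 4 TGF-β1 cultures, against 6.10, 6.03, 5.32 and 7.03 CPM in the 4 untreated cultures. Every TGF-β1 culture lay well below every untreated one. The log2 fold change was -1.99 ± 0.20 (SE, adjusted p = 3.48e-08). The gene is scarce in these cells, with 14 to 28 reads per TGF-β1 library and 79 to 118 per untreated library, and its spread among TGF-β1 cultures was the widest of the set in that group (coefficient of variation 26.1%, against a median of 4.77%). On the log2(FPKM + 1) scale, which compresses low values, its change was -0.51 and still called.

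Macrophages express ferroportin strongly, so their markers were read beside it. Of 12 macrophage markers, 10 were tested, with 1 higher (Adgre1, log2 fold change 0.68 ± 0.22), 2 lower and 7 not called. Their summed level was 170 to 207 CPM with TGF-β1 and 188 to 230 CPM untreated, so the groups overlapped. Lyz2, which makes up most of that sum, had 149 CPM with TGF-β1 and 169 CPM untreated. Mrc1, the mannose receptor of tissue macrophages, fell by 1.89 on the log2 scale, to 0.792 CPM with TGF-β1 against 2.94 CPM untreated. Of 8 red-cell markers 4 were at 0 in every library (Hba-a1, Hba-a2, Hbb-bt and Slc4a1), and their sum was 0.414 to 1.13 CPM with TGF-β1 and 0.397 to 0.875 CPM untreated. The part of macrophages in the ferroportin result was not tested.

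Transferrin receptor and ferritin moved in opposite directions. Tfrc (ENSMUSG00000022797, chr16:32427738-32451612, plus strand), which brings in transferrin-bound iron, had 102, 100.4, 112 and 116 CPM with TGF-β1, against 79.7, 80.2, 89.7 and 82.1 CPM untreated. The lowest TGF-β1 culture was above the highest untreated one, and the log2 fold change was 0.38 ± 0.05 (adjusted p = 3.57e-06). Fth1 (ENSMUSG00000024661, chr19:9957962-9962462, plus strand), the ferritin chain that oxidises iron for storage, had 585, 592, 607 and 612 CPM with TGF-β1, against 715, 753, 740.4 and 759 CPM untreated. These groups were also apart, with all TGF-β1 cultures lower (log2 fold change -0.31 ± 0.03, adjusted p = 1.88e-07). The ratio of Tfrc to Fth1 CPM within a library was 0.180 ± 0.009 with TGF-β1 and 0.112 ± 0.007 untreated (SD, n = 4 each), a ratio of the same counts and not a separate measurement. An antisense gene covers 41.5% of the exonic bases of Fth1 in GENCODE M39 and had 0 counts in these libraries. Whether strand was used in counting is unknown here. If it was not, reads of Fth1 may have gone uncounted there, so its level may be too low, which was not tested.

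The ferritin light chain moved less surely. Ftl1 (ENSMUSG00000050708, chr7:45107368-45109308, minus strand), which helps mineralise iron inside the cage, had 611, 741, 643 and 583 CPM with TGF-β1, against 729, 691, 733 and 689 CPM untreated. TGF-β1 replicate 2 was the highest of all 8 cultures while the other TGF-β1 cultures were the lowest, so the groups overlapped. The log2 fold change was -0.14 ± 0.05 (adjusted p = 0.0414). That call held in 9 of 17 alternatives. It was lost with DESeq2 (adjusted p = 0.177) and in both limma fits to log2 FPKM (adjusted p = 0.133 and 0.131). It was also lost without TGF-β1 replicate 1, 3 or 4 or untreated replicate 1 or 3 (adjusted p 0.0634 to 0.168). Both ferritin chains summed to 1244 ± 65 CPM with TGF-β1 and 1453 ± 14 CPM untreated. Reads of Ftl1 may be shared with 9 similar genes in the table, whose counts came to 1.89% of its own. An antisense and a same-strand gene also cover 34.6% of its exonic bases in GENCODE M39. Reads of Ftl1 may have gone uncounted there, which was not tested.

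The other iron genes of the set had small changes. Ireb2, iron regulatory protein 2, had 129, 124, 131 and 141 CPM with TGF-β1, against 127, 119, 120.1 and 120.0 CPM untreated. The groups overlapped through untreated replicate 1, and the log2 fold change of 0.11 ± 0.04 passed narrowly (adjusted p = 0.0479). The call held in 3 of 17 alternatives, those being RLE scaling and the fits without TGF-β1 replicate 2 or without untreated replicate 1. Leaving out any other culture ended it (adjusted p 0.0524 to 0.166). Aco1, iron regulatory protein 1 and also a cytosolic aconitase, had 86.1, 87.2, 85.5 and 80.9 CPM with TGF-β1, against 93.6, 82.0, 82.7 and 84.9 CPM untreated. Its groups overlapped, with a log2 fold change of -0.02 ± 0.05 (adjusted p = 0.845). Slc11a2, the iron carrier DMT1, had 49.4, 49.3, 54.3 and 51.6 CPM with TGF-β1, against 49.2, 47.3, 47.2 and 46.7 CPM untreated. The TGF-β1 values lay just above the untreated ones, but the change of 0.10 ± 0.05 on the log2 scale was not called (adjusted p = 0.127).

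**Figure D2:**
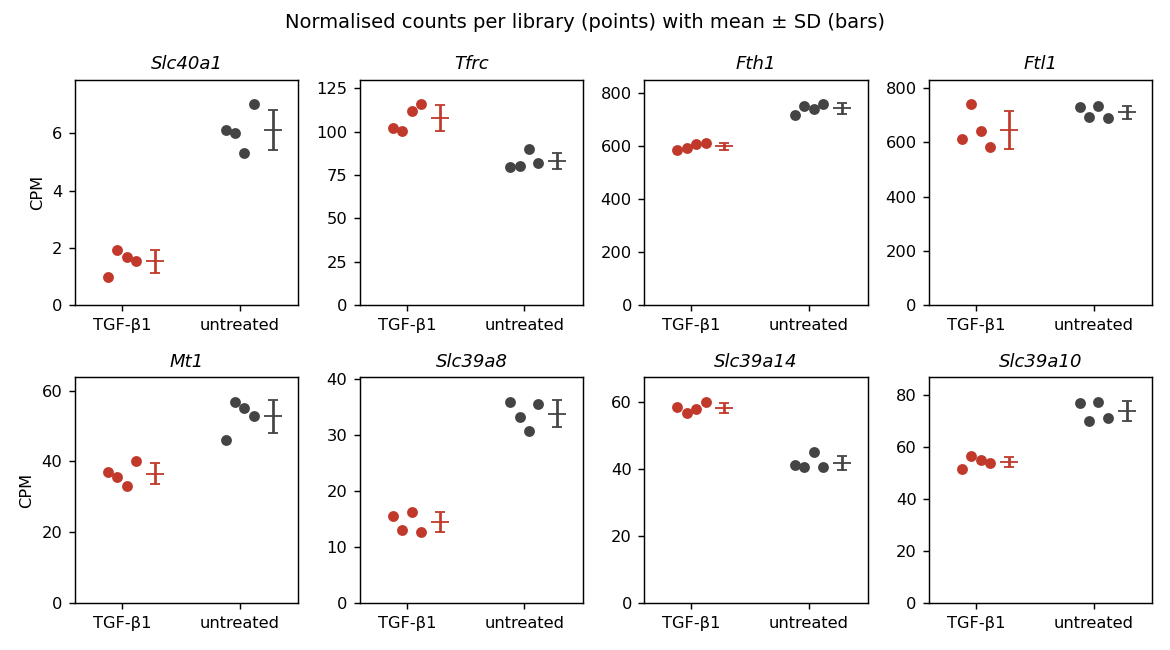
Normalised counts (CPM) of 8 zinc and iron handling genes in each culture (points, replicates 1 to 4 from left to right), with the mean ± SD of 4 cultures. TGF-β1 and untreated cultures separate for every gene shown except Ftl1, where TGF-β1 replicate 2, at 741 CPM, lies above all untreated cultures.

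A search matched an iron-responsive element in an untranslated region of the transcripts of 4 of the 34 genes. The matches are shown because those 4 had the largest changes among the iron genes. The element was searched in GENCODE M39 transcripts (GRCm39) as a hairpin with 5 lower-stem bases of which at least 4 pair, an unpaired C, 5 paired upper-stem bases and a loop of CAGTGN with a last base other than G. Only the transcript strand was read. This form was present in 17 of 21642 coding genes (0.0786%). A hairpin with another bulge or looser pairing would be missed, so a gene without a match may still carry an element. Each is written 5′ to 3′ as DNA with the loop in capitals.
Slc40a1, 5′ untranslated region: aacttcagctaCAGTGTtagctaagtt
Fth1, 5′ untranslated region: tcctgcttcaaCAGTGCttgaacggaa
Ftl1, 5′ untranslated region: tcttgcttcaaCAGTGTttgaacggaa
Tfrc, 3′ untranslated region, element 1: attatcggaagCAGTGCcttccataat
Tfrc, 3′ untranslated region, element 2: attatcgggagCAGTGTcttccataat
Tfrc, 3′ untranslated region, element 3: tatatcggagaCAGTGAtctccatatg
Tfrc, 3′ untranslated region, element 4: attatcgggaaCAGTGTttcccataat

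Both ferritin hairpins have the same upper stem, while the Slc40a1 stem has its own sequence. Among the 4 genes with a match, the 3 with it in the 5′ region were lower (Slc40a1, Fth1 and Ftl1). Tfrc, with it in the 3′ region, was higher. This describes only the 4 genes that the search matched. The counts measure transcript amount, and the effect of a 5′ element on translation cannot be read from them.

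In zinc buffering, Mt1 was lower with TGF-β1. Mt1 (ENSMUSG00000031765, chr8:94905710-94906955, plus strand) had 37.1, 35.7, 33.1 and 40.1 CPM with TGF-β1, against 46.0, 56.9, 55.0 and 52.9 CPM untreated. The highest TGF-β1 culture was below the lowest untreated one, and the log2 fold change was -0.53 ± 0.07 (adjusted p = 1.99e-06). Mt2 (ENSMUSG00000031762, chr8:94899292-94900196, plus strand), whose end lies 5514 bases before the start of Mt1, had 1.06, 0.759, 0.913 and 1.25 CPM with TGF-β1, against 1.33, 1.06, 1.95 and 1.61 CPM untreated. Its groups overlapped and its log2 fold change of -0.57 ± 0.30 was not called (adjusted p = 0.146). Mt2 had 11 to 21 reads per TGF-β1 library and 16 to 29 per untreated library. With so few reads its standard error was 0.30, against 0.07 for Mt1, and a change of the size seen in Mt1 may go uncalled. In GENCODE M39, 82.4% of its exonic bases also lie under an antisense gene, and whether strand was used in counting is unknown here. The part of this overlap in the low counts of Mt2 was not tested.

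Mtf1, the zinc-sensing factor that binds the metal response elements, did not pass the test. It had 23.0, 26.2, 23.5 and 22.2 CPM with TGF-β1, against 26.8, 24.9, 22.2 and 23.3 CPM untreated. The groups overlapped (log2 fold change -0.04 ± 0.08, adjusted p = 0.756). The ratio of Mt1 to Mt2 CPM was 37.6 ± 6.5 with TGF-β1 and 37.4 ± 11.2 untreated (SD, n = 4 each), and rests on few Mt2 reads.

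The metal response elements are shown because Mt1 and Mt2 carry the densest sets in these genes. The letters TGCACNC and TGCGCNC were searched on both strands in the 300 bases before the start codon of the canonical transcript (GRCm39). Mt1 and Mt2 each held 5 matches. At least 5 matches occurred in 30 of 21382 coding genes (0.140%), while 1 or more matches occurred in 25.5% of coding genes and in 11 of the 34 genes here. Slc30a2 held 4 matches, and Slc30a1, Slc30a5 and Slc30a10 held 2 each. The sites of Slc30a1 are shown beside those of the metallothioneins because it is a known MTF1 target in the mouse. Each site is printed along the plus strand with the match in capitals and 5 bases on either side, and the last pair of Mt1 sites shares flanking bases.
Mt1, chr8:94905689-94905705: cgctgTGCACACtggcg
Mt1, chr8:94905714-94905730: agctcTGCACTCcgccc
Mt1, chr8:94905732-94905748: aaaagTGCGCTCggctc
Mt1, chr8:94905796-94905812: ctgctGGGTGCAaaccc
Mt1, chr8:94905810-94905826: cccttTGCGCCCggact
Mt2, chr8:94899191-94899207: agggcGTGTGCAggctc
Mt2, chr8:94899245-94899261: gggtcGTGCGCAggccc
Mt2, chr8:94899299-94899315: agggcGTGTGCAggcgg
Mt2, chr8:94899318-94899334: ggggcGCGTGCAtggtg
Mt2, chr8:94899352-94899368: gctttTGCGCTCgaccc
Slc30a1, chr1:191638845-191638861: gttccGAGTGCAaagca
Slc30a1, chr1:191638918-191638934: gggccGAGCGCAgtcgc

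A match of these letters is a description and not a measured binding site. Of the 3 genes shown, Mt1 fell while Mt2 and Slc30a1, the zinc exporter of the cell surface, did not pass the test. Slc30a5 did not pass it either, and Slc30a2 and Slc30a10 were not tested for low counts.

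Among the Slc30a exporters, 1 of 6 tested genes was higher and none was lower. The share that was higher, 16.7%, is near the 17.6% of all genes tested. None was lower at an unadjusted p under 0.05 or with DESeq2, but with library totals Slc30a1 was called lower (log2 fold change -0.23, adjusted p = 0.0452). Slc30a9 (ENSMUSG00000029221, chr5:67464298-67515786, plus strand), a mitochondrial zinc exporter in human cells, had 92.9, 102.9, 97.7 and 92.3 CPM with TGF-β1, against 87.1, 81.6, 82.2 and 84.1 CPM untreated. All TGF-β1 cultures were above all untreated ones, and the log2 fold change was 0.20 ± 0.05 (adjusted p = 0.00106). With library totals this call was lost (adjusted p = 0.0561). The 5 others had log2 fold changes of 0.03 for Slc30a5 (adjusted p = 0.691), 0.15 for Slc30a6 (adjusted p = 0.162), 0.10 for Slc30a7 (adjusted p = 0.110), 0.11 for Slc30a4 (adjusted p = 0.135) and -0.15 for Slc30a1 (adjusted p = 0.200). Slc30a5 and Slc30a6 form a pair that loads zinc into the early secretory pathway, Slc30a7 acts there as well, and Slc30a4 fills endosomal vesicles. The standard errors of these log2 fold changes ran from 0.05 for Slc30a7 to 0.09 for Slc30a1.

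The Slc39a importers were divided, with 3 of 11 tested genes higher, 3 lower and 5 not called. The share in each direction was 27.3%, against 17.6% higher and 18.5% lower over all genes tested, and on 11 genes nothing particular to the family is read from it. Slc39a8 (ENSMUSG00000053897, chr3:135531040-135594333, plus strand), a carrier of zinc and manganese at the cell surface, had 15.5, 13.1, 16.3 and 12.7 CPM with TGF-β1, against 36.0, 33.2, 30.7 and 35.6 CPM untreated. The groups were far apart, every TGF-β1 culture lying below every untreated one, and the log2 fold change was -1.24 ± 0.08 (adjusted p = 6.98e-11). Its closest relative Slc39a14 (ENSMUSG00000022094, chr14:70540918-70588874, minus strand), which carries zinc, manganese and iron not bound to transferrin, went the other way. It had 58.4, 56.7, 58.0 and 60.2 CPM with TGF-β1, against 41.4, 40.7, 45.0 and 40.6 CPM untreated. No value overlapped, and the log2 fold change was 0.48 ± 0.05 (adjusted p = 1.59e-07). The ratio of Slc39a14 to Slc39a8 CPM was 4.10 ± 0.54 with TGF-β1 and 1.25 ± 0.15 untreated.

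Slc39a10 and Slc39a6, importers known to form a complex, also went in opposite directions. Slc39a10 (chr1:46846704-46932012, minus strand) had 51.7, 56.5, 55.0 and 53.8 CPM with TGF-β1, against 76.8, 69.9, 77.4 and 71.3 CPM untreated. The groups did not overlap (log2 fold change -0.44 ± 0.05, adjusted p = 2.41e-07). Slc39a6 had 153, 159.6, 153.7 and 157.9 CPM with TGF-β1, against 133.5, 129, 135 and 130.2 CPM untreated. It was higher in every TGF-β1 culture (log2 fold change 0.24 ± 0.04, adjusted p = 2.00e-05).

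Slc39a13, which releases zinc from vesicles of the secretory pathway and is mutated in a human connective tissue disorder, had 90.8, 87.4, 93.8 and 87.5 CPM with TGF-β1, against 74.4, 80.8, 86.7 and 79.8 CPM untreated. The groups were apart by less than 1 CPM (log2 fold change 0.16 ± 0.05, adjusted p = 0.0119). The call was lost without untreated replicate 1, the lowest of its group (adjusted p = 0.0651), and with library totals (adjusted p = 0.202). Slc39a4, the importer of dietary zinc in the gut, was scarce, with 1.13, 1.24, 1.83 and 1.37 CPM with TGF-β1, against 2.85, 2.25, 3.30 and 3.16 CPM untreated. It was lower in all TGF-β1 cultures (log2 fold change -1.05 ± 0.24, adjusted p = 0.00142) on 16 to 26 reads per TGF-β1 library and 34 to 53 per untreated library. Antisense genes cover 24.6% of its exonic bases in GENCODE M39.

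Of the 5 importers not called, Slc39a1 and Slc39a3 are carriers of the cell surface, Slc39a7 releases zinc from the endoplasmic reticulum and Slc39a9 acts at the Golgi. Their log2 fold changes were 0.06 for Slc39a1 (adjusted p = 0.201), 0.02 for Slc39a3 (adjusted p = 0.866), 0.22 for Slc39a7 (adjusted p = 0.234), 0.04 for Slc39a9 (adjusted p = 0.528) and 0.13 for Slc39a11 (adjusted p = 0.176). Slc39a1 lay higher in all TGF-β1 cultures, at 280.3 to 289 CPM against 259.9 to 279.8 CPM untreated. The result for Slc39a7 depended on 1 culture: it had 11.8, 11.5, 9.41 and 7.03 CPM with TGF-β1, against 8.75, 8.41, 7.80 and 8.99 CPM untreated. Without TGF-β1 replicate 4, the lowest of the 8, it was called higher (log2 fold change 0.36, adjusted p = 0.0243). A gene on the same strand covers 78.3% of its exonic bases and had at most 6 reads in a library. Reads of Slc39a7 may have gone uncounted there, so its level may be too low, which was not tested.

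The 7 genes that failed the filter on low counts were Slc30a2 (6 to 26 reads per library), Slc30a3 (0 to 3), Slc39a2 (1 to 15), Slc39a5 (2 to 15), Slc39a12 (0 to 2), and Slc30a8 and Slc30a10 (0 in all 8 libraries). Slc30a8 supplies zinc to the insulin granules of pancreatic beta cells, Slc30a10 exports manganese in liver and brain, and Slc30a3 loads synaptic vesicles. A count of 0 allows up to 3 reads, which is 0.179 to 0.211 CPM in these libraries and covers counting error only. No change can be read for these genes at this depth.

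Levels between genes can be compared only per length, so the authors' FPKM values were used for that. The 3 highest genes were Ftl1 at 474 ± 51 FPKM with TGF-β1 and 523 ± 16 FPKM untreated, Fth1 at 170.2 ± 3.3 FPKM with TGF-β1 and 211 ± 5.7 FPKM untreated, and Slc39a1 at 118 ± 1.9 FPKM with TGF-β1 and 113 ± 3.8 FPKM untreated (SD, n = 4 each). The order of both ferritin chains depends on the length used. The file gives Fth1 3469 bases, where its canonical transcript has 929, and gives Ftl1 1340, where its canonical transcript has 969. Per canonical length, Ftl1 was 656 ± 71 FPKM with TGF-β1 and 723 ± 23 FPKM untreated. Fth1 was 635 ± 12 FPKM with TGF-β1 and 787 ± 21 FPKM untreated, so Fth1 was within the spread of Ftl1 with TGF-β1 and above it untreated. Both genes lie partly under other genes, and the part of uncounted reads in this order was not tested. At the low end by the file's lengths stood Slc40a1, at 0.168 ± 0.044 FPKM with TGF-β1 and 0.670 ± 0.078 FPKM untreated. The file gives it 9000 bases, where its canonical transcript has 3463. Per canonical length it was 0.438 ± 0.114 FPKM with TGF-β1, within the spread of Slc39a4 at 0.497 ± 0.109 FPKM. Untreated it was then 1.74 ± 0.20 FPKM, above Slc39a4 at 1.03 ± 0.17 FPKM.

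The sums of the zinc families moved little in FPKM while the shares of some importers in their sum shifted. The 14 importers summed to 217 ± 3.4 FPKM with TGF-β1 and 207 ± 3.7 FPKM untreated, and the 10 exporters to 48.1 ± 0.7 FPKM with TGF-β1 and 45.5 ± 0.6 FPKM untreated. By the file's lengths, Slc39a1 held 54.5% of the importer sum with TGF-β1 and 54.7% untreated, and Slc39a6 held 17.4% with TGF-β1 and 15.4% untreated. The second place depends on the length used. Per canonical length Slc39a13 was 35.2 ± 1.2 FPKM with TGF-β1 and 31.5 ± 1.9 FPKM untreated. Slc39a6 was then 31.0 ± 0.61 FPKM with TGF-β1 and 26.2 ± 0.50 FPKM untreated. Slc39a8 held 0.854% with TGF-β1 and 2.11% untreated by the file's lengths, so the importer with the largest change was a small part of the importer transcripts. The file gives it 7664 bases, where its canonical transcript has 3822. Per canonical length it was 3.71 ± 0.46 FPKM with TGF-β1 and 8.73 ± 0.64 FPKM untreated, against 118 and 113 FPKM for Slc39a1. Among exporters too the order depends on the length used. By the file's lengths Slc30a4 and Slc30a5 were highest, at 22.4% and 21.1% of the exporter sum with TGF-β1, against 22.1% and 21.9% untreated, and did not differ beyond their spread. Per canonical length Slc30a9 was highest, at 16.6 ± 0.86 FPKM with TGF-β1 and 14.4 ± 0.44 FPKM untreated, the file giving it 12374 bases and its canonical transcript having 5743. Slc30a5 was then 13.3 ± 0.62 FPKM with TGF-β1 and 13.0 ± 0.69 FPKM untreated. The plot of FPKM levels shows the order of all 27 tested genes.

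**Figure D3:**
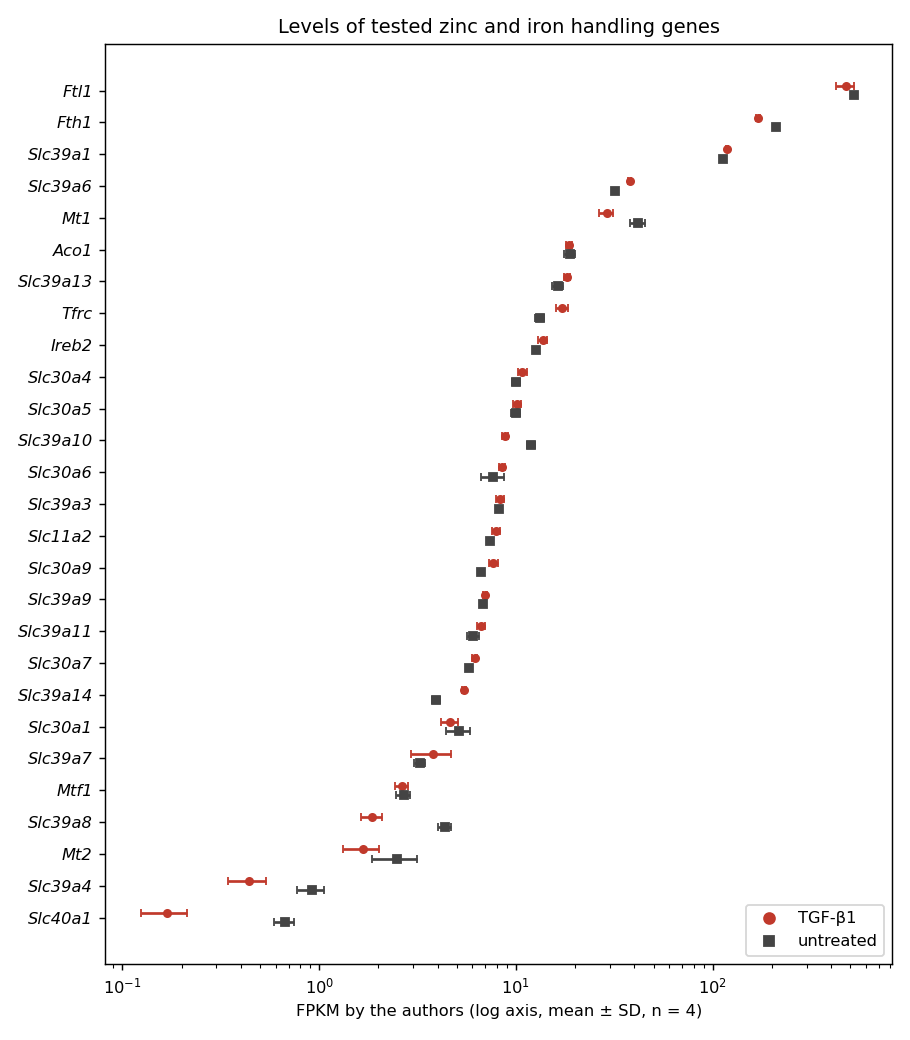
Level of each tested zinc and iron handling gene as the authors' FPKM on a log axis (mean ± SD of 4 cultures), ordered by the TGF-β1 mean. By the file's lengths, Ftl1 is highest at 474 FPKM with TGF-β1 and 523 FPKM untreated, and Slc40a1 is lowest at 0.168 FPKM with TGF-β1 and 0.670 FPKM untreated.

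The wider pathway was read from 87 other genes of metal handling, grouped by role, of which 73 passed the filter. These lists too were set with earlier results of these data known. Of these, 14 were higher with TGF-β1 and 19 lower (45.2% called, against 36.0% of all genes tested). Without untreated replicate 1 the first count was 9, and with library totals the counts were 7 and 29. In the group of iron uptake, export and systemic control 5 of 15 were higher and 9 lower (93.3% called), with a median log2 fold change of -0.56. Among cytosolic iron genes 3 of 10 were higher and 2 lower, among mitochondrial iron, iron-sulfur and haem genes 2 of 30 were higher and 6 lower, and among copper, manganese and magnesium genes and other metallothioneins 4 of 18 were higher and 2 lower. The median log2 fold change of those 3 groups was 0.03, -0.09 and -0.03, close to that of all genes tested.

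Of the 3 ferroxidases in that group, which work beside ferroportin, Cp and Heph were lower and the scarce Hephl1 was higher. Cp, ceruloplasmin, a copper enzyme that oxidises exported iron, had 10.2, 9.80, 11.9 and 13.2 CPM with TGF-β1, against 23.1, 24.9, 19.4 and 24.9 CPM untreated (log2 fold change -1.03 ± 0.10, adjusted p = 3.48e-08). Heph, hephaestin, its membrane-bound relative, had 25.6, 20.5, 24.5 and 24.7 CPM with TGF-β1, against 36.1, 36.9, 41.2 and 40.2 CPM untreated (log2 fold change -0.70 ± 0.07, adjusted p = 7.32e-08). For both genes no TGF-β1 culture reached the lowest untreated one. Ferric reductases were lower too: Cybrd1, the reductase of the gut surface, had 2.32, 2.14, 1.90 and 2.56 CPM with TGF-β1, against 6.50, 6.62, 6.997 and 7.56 CPM untreated (log2 fold change -1.63 ± 0.16, adjusted p = 2.93e-08). Steap3, which reduces iron in the endosome that holds transferrin, had 76.8, 73.2, 79.9 and 82.4 CPM with TGF-β1, against 112, 119, 110.0 and 120.6 CPM untreated (log2 fold change -0.56 ± 0.05, adjusted p = 1.56e-09). These groups were apart as well. Lrp1, a large scavenger receptor that takes up haem bound to hemopexin, rose, with 3126, 3020.4, 3005 and 2777 CPM with TGF-β1, against 2471, 2185, 2099.6 and 2167 CPM untreated (log2 fold change 0.42 ± 0.04, adjusted p = 8.48e-08).

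In that same group, 4 genes were chosen for naming after their values were seen. Hephl1, the hephaestin-like ferroxidase, had 0.915, 1.38, 0.773 and 0.715 CPM with TGF-β1, against 0.199, 0.199, 0.269 and 0.0595 CPM untreated (log2 fold change 2.35 ± 0.47, adjusted p = 0.000383). Its groups did not overlap, on 11 to 20 reads per TGF-β1 library and 1 to 4 per untreated library. Tfr2, transferrin receptor 2, an iron sensor of liver and erythroid cells, had 3.17, 2.55, 2.60 and 3.22 CPM with TGF-β1, against 0.265, 0.265, 0.807 and 0.476 CPM untreated (log2 fold change 2.65 ± 0.32, adjusted p = 5.73e-07), on 4 to 12 reads per untreated library. Steap4, another metalloreductase, had 0.423, 0, 0.281 and 0.119 CPM with TGF-β1, against 2.65, 3.18, 1.61 and 3.04 CPM untreated (log2 fold change -3.65 ± 0.44, adjusted p = 6.22e-07). Tfr2 and Steap4 are rare transcripts whose groups did not overlap. Trf, transferrin itself, had 13.8, 16.1, 15.7 and 15.2 CPM with TGF-β1, against 22.7, 26.1, 28.7 and 25.8 CPM untreated (log2 fold change -0.77 ± 0.08, adjusted p = 1.28e-07), again with no overlap.

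Inside the cell, Epas1, the hypoxia factor HIF-2α that drives iron uptake genes, fell to 145 ± 9.2 CPM with TGF-β1, against 287 ± 10.2 CPM untreated (log2 fold change -0.99 ± 0.04, adjusted p = 6.71e-14). Glrx3 and Bola2, which pass iron-sulfur clusters in the cytosol, rose by 0.38 ± 0.04 and 0.30 ± 0.07 on the log2 scale (adjusted p = 8.20e-08 and 0.00232). Pcbp2, an iron chaperone that delivers iron to ferritin in human cells, fell by 0.17 ± 0.05 (adjusted p = 0.00902). Ncoa4, the receptor that sends ferritin to the lysosome, had a log2 fold change of 0.11 ± 0.04 (adjusted p = 0.0442), a call that was lost in 13 of 17 alternatives, among them the fits without TGF-β1 replicate 3 or 4 or untreated replicate 1, 3 or 4 (adjusted p 0.0871 to 0.132).

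Of the haem genes, Abcb10, a transporter of the mitochondrial inner membrane, rose by 0.47 ± 0.07 on the log2 scale (adjusted p = 8.53e-06). Alad and Cpox, enzymes of haem synthesis, fell by 0.35 ± 0.07 and 0.17 ± 0.05 (adjusted p = 0.000299 and 0.0105), and Blvrb, a biliverdin reductase, fell by 0.59 ± 0.10 (adjusted p = 5.39e-05). Slc48a1, the lysosomal haem carrier, fell by 0.27 ± 0.04 (adjusted p = 1.71e-05), with 82.1% of its exonic bases under the antisense gene Hdac7. Among genes of other metals, Slc41a2 (magnesium) rose by 0.35 ± 0.07 (adjusted p = 0.000556), Atox1 (a copper chaperone) by 0.19 ± 0.06 (adjusted p = 0.0178) and Slc31a1 (copper import) by 0.13 ± 0.05 (adjusted p = 0.0384). Tmem165 (manganese in the Golgi) fell by 0.16 ± 0.04 (adjusted p = 0.00383) and Trpm7 (a magnesium and zinc channel) by 0.13 ± 0.04 (adjusted p = 0.0241). Some of these calls were narrow. That of Slc31a1 was lost in 9 of 17 alternatives, among them the fits without TGF-β1 replicate 3 or 4 or untreated replicate 1 or 2 (adjusted p 0.0776 to 0.137). That of Trpm7 was lost in 6, among them those without TGF-β1 replicate 1, 2 or 3 or untreated replicate 4 (adjusted p 0.0640 to 0.0761). That of Atox1 was lost in 3, among them those without untreated replicate 1 or 3 (adjusted p 0.0889 and 0.0531).

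**Figure D4:**
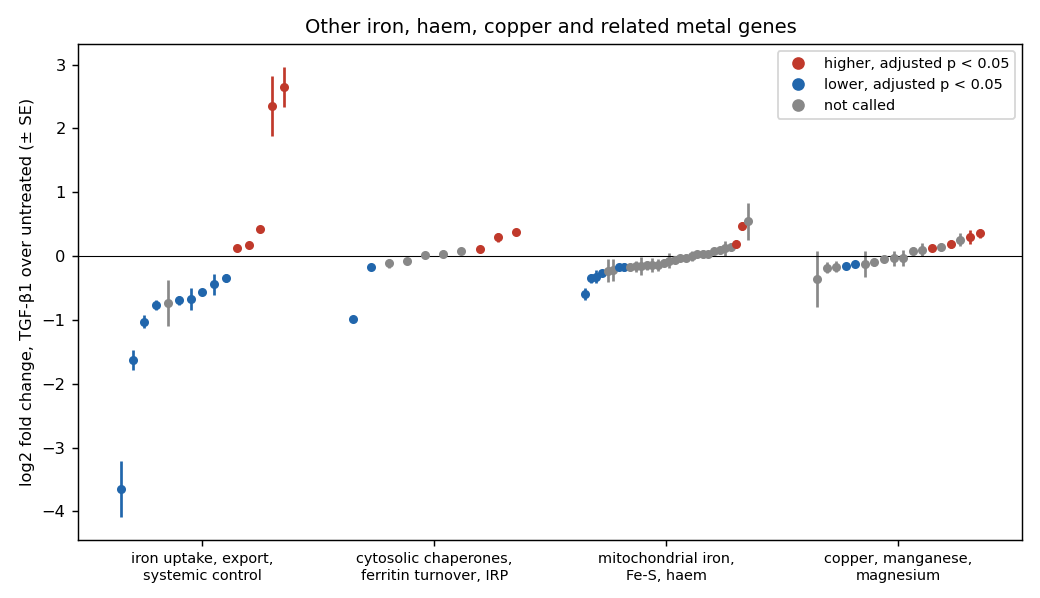
Log2 fold change, TGF-β1 over untreated, with its standard error, of the 73 other tested metal handling genes in 4 groups by role, ordered by size within a group. The group of iron uptake, export and systemic control spreads from -3.65 to 2.65, and the other 3 groups lie within 0.6 of 0 apart from Epas1 at -0.99.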

How the data were processed

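Libraries were made from oligo(dT)-selected RNA with random-primed cDNA, per the labels' protocols. Whole-number read counts per gene were deposited for 8 libraries, with CASAVA, HISAT2, featureCounts and Subread named in the submitters' processing notes; versions and the strand setting are not given in the sources used here. FPKM values were computed by the authors and deposited as a separate table; their denominator was 0.971 to 1.07 times the library total. The notes name GRCm38 and the design mm39; 99.9% of 21778 coding genes overlapped the same gene in GENCODE M39, so coordinates were read as GRCm39.

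Genes were kept with filterByExpr (minimum count 10, minimum total 15), scaled with TMM and tested with the edgeR 4.0.16 quasi-likelihood test (limma 3.58.1, R 4.3.3), two-sided, with group as the only term and Benjamini-Hochberg adjustment over 13960 genes. A call needs an adjusted p under 0.05. CPM values are counts scaled to TMM-corrected library size in the usual unit. The standard error is the log2 fold change over the square root of F. The biological coefficient of variation was 6.27%. The test was first tried on simulated data.

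The genes, lists and naming rule were chosen with earlier results of these data known. The rule gives values for every gene of the set and for up to 5 called genes with the smallest p in each list of other metal genes. Replicate numbers did not pair the libraries (correlations of same-numbered deviations -0.08 to 0.08), and no library was a duplicate (median chi-square 2.07 to 3.17 times sampling noise). Alternatives comprised scaling by RLE, upper quartiles or library totals, 2 other count filters, DESeq2 1.42.0, a limma fit to log2 FPKM (pseudocount 1 or 0.1), a replicate block and each library left out. Similar genes were found with BLAST 2.17.0 (at least 90% identity over 150 bases).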

Additional observations from a re-analysis of the deposited data

Results flagged for a closer look

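A single culture stood apart from its group in 3 of the 54 groups of 4 values tested with Dixon's criterion, which chance does in about 1 of 20. For Ireb2, untreated replicate 1 had 127 CPM and the other untreated cultures 119 to 120.1 CPM; this is the library with little ribosomal RNA, and leaving it out kept the call of Ireb2. For Slc30a5, TGF-β1 replicate 1 had 69.8 CPM and the other TGF-β1 cultures 76.7 to 77.3 CPM. For Slc39a9, TGF-β1 replicate 4 had 69.1 CPM and the other TGF-β1 cultures 72.4 to 72.8 CPM. Neither of these genes was called with or without that culture.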

How the results depend on the processing

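Under 17 alternatives, Slc40a1, Tfrc, Fth1, Mt1, Slc39a8, Slc39a10, Slc39a14 and Slc39a6 kept their call and direction in all, and Slc39a4 in the 16 that tested it. Slc39a4 and Mt2 did not pass the filter of 50 counts in 4 libraries. With library totals, 3 genes of the set were higher (6 with TMM), and of the other metal genes 7 were higher (14 with TMM) and 29 lower (19 with TMM); these totals shift the median log2 fold change by -0.08. With at least 50 counts in 4 libraries, 8 other metal genes were higher: 2 of the 6 lost were no longer tested and 4 missed the threshold (Bmp6, Ncoa4, Slc31a1 and Cnnm4, adjusted p 0.0537 to 0.0708); the cause was not tested. Leaving out 1 library at a time gave 5 to 6 higher and 6 to 7 lower in the set. For the other metal genes it gave 9 to 14 higher and 16 to 19 lower, the 9 without untreated replicate 1. With the replicate number as a block, 5 genes of the set were higher (Ireb2 lost) and 7 lower, and 14 other metal genes were higher and 19 lower; the numbers do not pair the samples, and same-numbered libraries matched best in 1 of 4 cases. Slc30a1 was called lower with library totals and Slc39a7 higher without TGF-β1 replicate 4. No call changed direction. Low counts limit Mt2, Slc39a4, Slc40a1 and the 7 untested genes.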
